A study of Mus musculus with 6 samples.

Results

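Amino acid carriers are solute carrier (SLC) membrane proteins that bring amino acids into cells or pass them across epithelia. The set described here holds 36 mouse genes, chosen by symbol from the SLC1, SLC3, SLC6, SLC7, SLC36, SLC38 and SLC43 families together with the aromatic amino acid carrier Slc16a10 and the peptide carrier Slc15a1. All 36 were on the array, on 76 of its 45101 probe sets, and each was read on its brightest probe set, as were the 18194 genes named on the array. RNA came from whole embryos at embryonic day 9.5, with a separate array for each embryo, and the 3 RFC1-/- and 3 RFC1+/+ embryos were littermate pairs from 3 litters of RFC1+/- dams. RFC1, whose mouse gene is Slc19a1, is the reduced folate carrier, and the null allele, carried through the germline and bred onto the inbred SWV background, was present in every tissue. The labels and methods do not say which part of Slc19a1 was deleted, and its brightest probe set read 1.91-fold higher in RFC1-/- embryos, so these arrays do not check the genotypes. Both genotypes shared the treatment of the dams, which had 25 mg/kg of folic acid under the skin each day from day 0.5. The labels describe the RFC1-/- embryos as affected, with craniorachiscisis (an open neural tube) and no chorioallantoic fusion, and the RFC1+/+ embryos as normal. The paper describes RFC1-/- embryos from dams on this dose as developmentally delayed. Genotype and stage of development therefore cannot be told apart in these arrays. Extraembryonic membranes were collected for genotyping, and the RNA is that of all tissues of the embryo together. Nothing in the sources says how completely the yolk sac was taken off.

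Carriers of amino acids fall into groups by where they work. In absorptive epithelia such as gut, kidney tubule and the visceral yolk sac, apical carriers take amino acids up and basolateral carriers release them, while dividing cells of every tissue rely on broadly expressed carriers for leucine, glutamine, arginine and cystine. Several SLC7 proteins are light chains that reach the membrane only with a heavy chain, which is Slc3a1 for Slc7a9 and Slc3a2 for Slc7a5, Slc7a6, Slc7a7, Slc7a8, Slc7a10 and Slc7a11. The 36 genes were sorted into 12 carriers known from absorptive epithelia, 13 ubiquitous carriers and 11 carriers restricted to other tissues such as nerve, glia, liver or blood.

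Slc7a9 and Slc7a7, which are light chains of absorptive epithelia, were higher in RFC1-/- embryos than in their RFC1+/+ littermates in all 3 litters. They were the 2 of 36 carriers that passed an adjusted p of 0.05 in limma over all genes. No carrier was called lower. Over all 18194 genes, 968 passed (5.32%), 667 of them higher (3.67%) and 301 lower (1.65%), so the share of carriers called was close to that of all genes. Before adjustment, 10 carriers were higher and 5 lower at a p under 0.05, beside 10.4% and 8.05% of all genes. The 3 RFC1-/- values lay above all 3 RFC1+/+ values for 10 carriers and below them for 5, against 12.8% and 13.4% of all genes. The median log2 difference of the 36 carriers was 0.03, and that of all genes -0.01. Levels are log2 values made by robust multiarray averaging (RMA), and a difference is RFC1-/- minus RFC1+/+ within a litter. The median of all probe sets on an array lay between 5.43 and 5.49, and a gene whose mean lay under 5.46 in a genotype is said here to lie below the array median, where a signal above background is not shown.

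**Figure D1:**
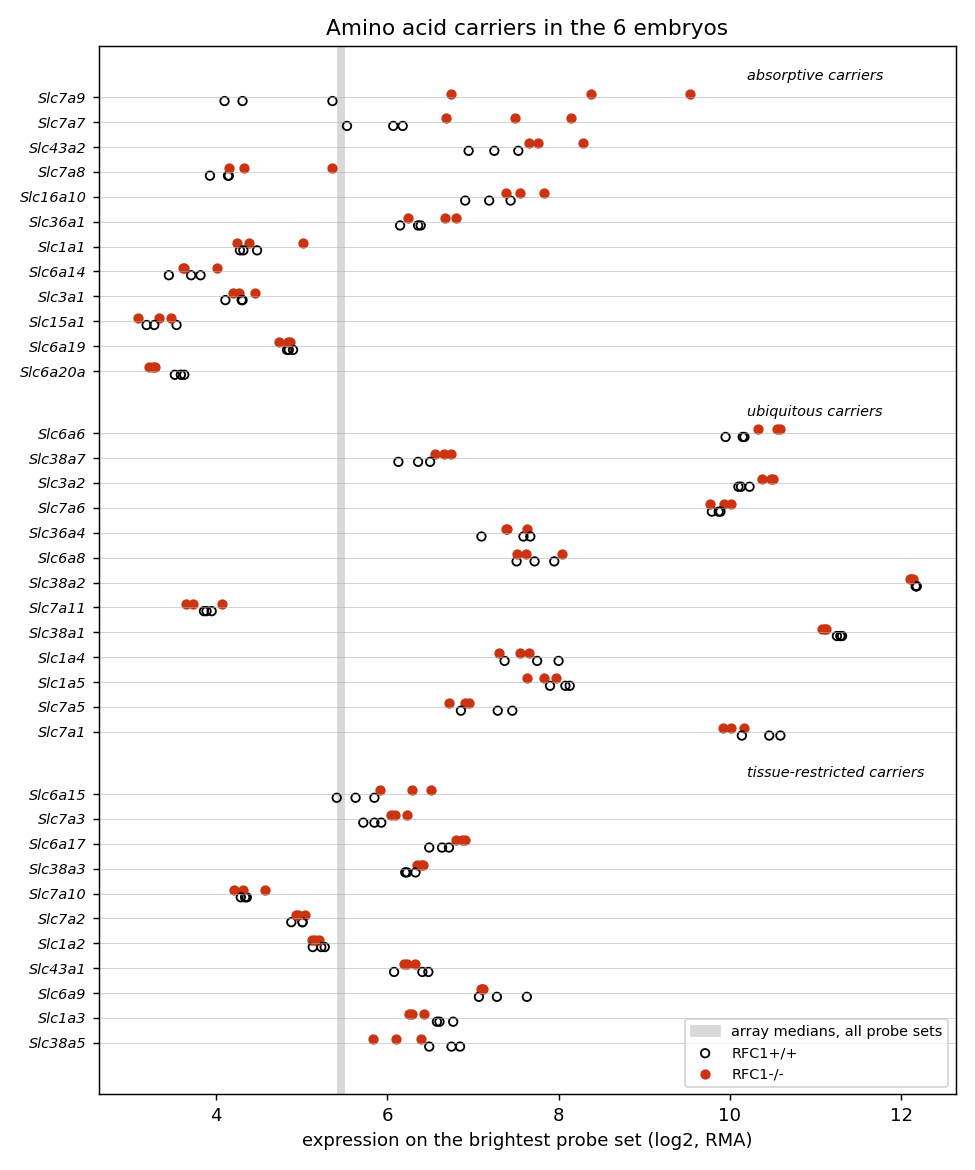
Expression on the log2 RMA scale (x axis) of the 36 carriers on their brightest probe sets (y axis), with open circles for the 3 RFC1+/+ embryos, red points for the 3 RFC1-/- embryos and a grey band for the array medians. Slc7a9 runs from 4.10 to 5.36 in RFC1+/+ and from 6.74 to 9.53 in RFC1-/- embryos, and 11 carriers lie below the array median in both genotypes.

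Slc7a9 is the light chain of the apical exchanger that takes up cystine and the basic amino acids in kidney and gut. The RFC1+/+ embryos of litters 1, 2 and 3 had values of 5.36, 4.31 and 4.10, and the RFC1-/- embryos of the same litters 8.38, 6.74 and 9.53. Every RFC1-/- embryo was above every RFC1+/+ embryo, and the RFC1+/+ mean of 4.59 ± 0.68 (SD, n = 3) lay below the array median. The log2 difference was 3.63 (standard error 0.51, adjusted p = 0.0132 from limma). With each RFC1+/+ array set no lower than its own median, the group means differed 6.75-fold. This is an estimate given without its sampling error. The litters differed in size, with 3.02, 2.43 and 5.43 in litters 1, 2 and 3. Without litter 3 the difference was 2.73 and without litter 2 it was 4.23, and the call held in both.

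Slc3a1, the heavy chain with which Slc7a9 forms its exchanger, lay below the array median on every array. It measured 4.11, 4.31 and 4.30 in RFC1+/+ and 4.27, 4.20 and 4.46 in RFC1-/- embryos, and the groups overlapped. Its log2 difference was 0.07, with a 95% confidence interval from -0.19 to 0.32 and an adjusted p of 0.836 in limma. The interval of Slc7a9 ran from 2.43 to 4.83, above that of Slc3a1, and the difference between the chains was not tested. Slc3a1 has a single probe set here, and a gene below background can change without its probe set showing it.

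Slc7a7 is the light chain of the basolateral exchanger that releases basic amino acids from epithelial cells. It measured 6.07, 5.53 and 6.18 in RFC1+/+ and 7.49, 6.69 and 8.14 in RFC1-/- embryos of litters 1, 2 and 3, with no overlap. The rise was 1.51 ± 0.16 on the log2 scale (mean and standard error), or 2.85-fold, with an adjusted p of 0.00696 in limma. Litter 3 again had the largest difference, 1.96, followed by litter 1 with 1.42 and litter 2 with 1.16. The other Slc7a7 probe set, at 4.43 in RFC1+/+ and 4.81 in RFC1-/- embryos, had a difference of 0.38, which was not called when limma was run on every probe set (adjusted p = 0.424).

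Slc3a2, the heavy chain shared by Slc7a7 and the other light chains named above, had a narrow spread. It measured 10.13, 10.10 and 10.23 in RFC1+/+ and 10.48, 10.37 and 10.50 in RFC1-/- embryos, and the groups did not overlap. The log2 difference of 0.29 (95% interval 0.06 to 0.52) did not pass adjustment (adjusted p = 0.158 from limma). Among its other light chains, Slc7a5, the leucine carrier of dividing cells, had a log2 difference of -0.34 (adjusted p = 0.166), and Slc7a6, which exchanges basic for neutral amino acids, one of 0.05. Slc7a8, a basolateral carrier of neutral amino acids, measured 4.14, 4.15 and 3.93 in RFC1+/+ and 4.33, 4.15 and 5.36 in RFC1-/- embryos. Its difference of 1.43 in litter 3 stood beside 0.18 and -0.00 in litters 1 and 2, and its mean difference of 0.54 did not pass (adjusted p = 0.350 from limma). Slc7a10, a carrier of small neutral amino acids in brain, and Slc7a11, the cystine-glutamate exchanger that feeds glutathione synthesis, lay below the array median in both genotypes, with differences of 0.03 and -0.08. Of these light chains, only Slc7a7 was called in limma under the settings tried.

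**Figure D2:**
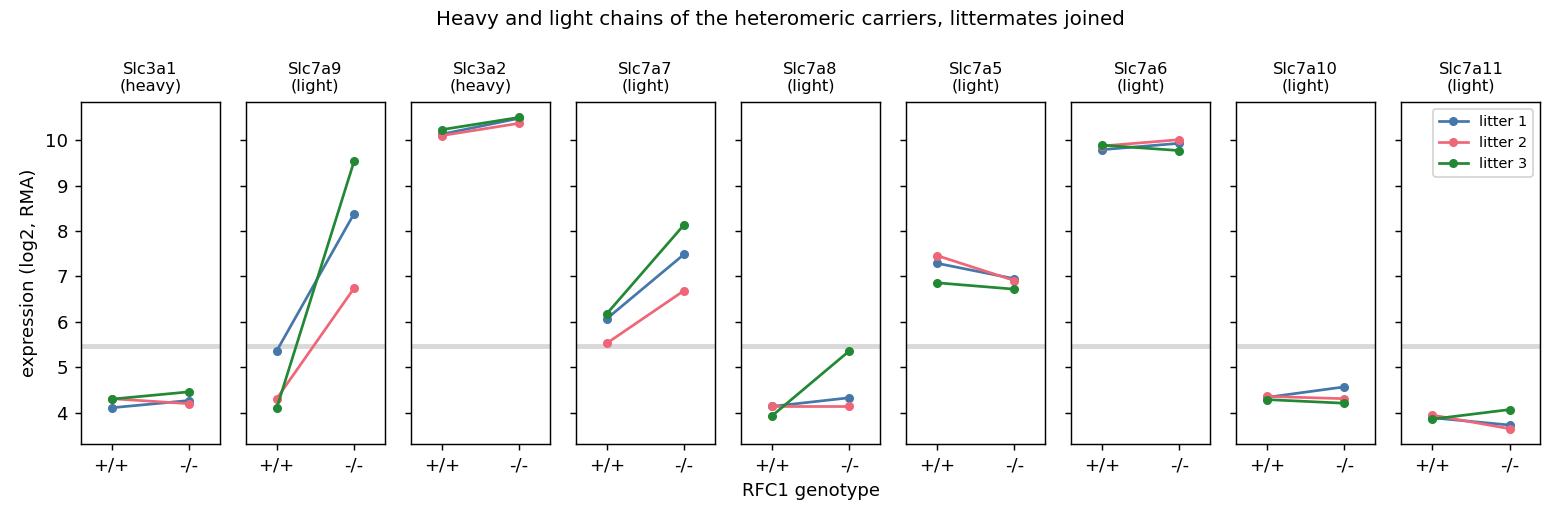
Expression on the log2 RMA scale (y axis) of the heavy chains Slc3a1 and Slc3a2 and their light chains in RFC1+/+ and RFC1-/- embryos (x axis), with littermates joined by lines and the array medians as a grey band. Slc7a9 and Slc7a7 rise in all 3 litters while Slc3a1 stays between 4.11 and 4.46, and heights in different panels are not comparable, since they come from different probe sets.

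The start regions of Slc7a9, Slc3a1 and Slc7a7 are shown because Slc7a9 and Slc7a7 are the carriers called and Slc3a1 is the heavy chain of Slc7a9. The sequences are from RefSeq (GRCm38.p6) and hold 250 bases before and 50 bases after a transcript start, given 5′ to 3′ on the strand of the gene. Capitals mark the letters searched: GTTAAT, part of the site of the epithelial factor HNF1; CAAAGTCCA, a form of the HNF4 site; and TGATGNAA, a form of the element bound by C/EBP-ATF dimers in amino acid shortage. Both strands were searched, and the motifs printed do not overlap.
Slc7a9, chr7:35448842-35449141, plus strand: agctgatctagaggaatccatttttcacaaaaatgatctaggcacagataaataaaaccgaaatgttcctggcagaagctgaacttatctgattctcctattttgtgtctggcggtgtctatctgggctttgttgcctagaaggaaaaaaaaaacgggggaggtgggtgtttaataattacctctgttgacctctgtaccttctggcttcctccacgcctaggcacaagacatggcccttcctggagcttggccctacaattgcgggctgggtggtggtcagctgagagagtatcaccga
Slc3a1, chr17:85028097-85028396, plus strand: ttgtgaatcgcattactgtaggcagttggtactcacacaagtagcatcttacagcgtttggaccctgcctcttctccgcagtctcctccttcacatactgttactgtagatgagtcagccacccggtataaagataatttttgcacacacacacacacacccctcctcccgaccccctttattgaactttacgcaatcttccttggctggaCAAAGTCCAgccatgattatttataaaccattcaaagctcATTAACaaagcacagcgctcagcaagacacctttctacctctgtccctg
Slc7a7, chr14:54409423-54409722, minus strand: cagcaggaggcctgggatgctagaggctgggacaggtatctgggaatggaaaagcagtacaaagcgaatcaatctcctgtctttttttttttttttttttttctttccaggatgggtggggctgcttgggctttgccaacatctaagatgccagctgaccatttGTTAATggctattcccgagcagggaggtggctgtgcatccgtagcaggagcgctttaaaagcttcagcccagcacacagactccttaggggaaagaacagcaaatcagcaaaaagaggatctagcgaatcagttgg
Slc7a7, chr14:54417895-54418194, minus strand: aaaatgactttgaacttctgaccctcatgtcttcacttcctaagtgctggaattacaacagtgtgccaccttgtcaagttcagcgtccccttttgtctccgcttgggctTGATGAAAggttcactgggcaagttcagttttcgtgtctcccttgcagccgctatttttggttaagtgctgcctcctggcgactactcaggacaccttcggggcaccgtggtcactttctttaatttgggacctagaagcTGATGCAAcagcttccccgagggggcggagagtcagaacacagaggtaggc

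Slc3a1, which did not differ detectably, held the HNF4 letters from base 212 and the HNF1 letters on the opposite strand from base 252 of its window. Both windows of Slc7a9, which overlap, held none of the letters. Slc7a7 has 5 annotated starts, of which 1 held the HNF1 letters from base 165 and 2, which overlap, held the C/EBP-ATF letters, at bases 110 and 250 of the window shown. Of the 36 carriers, 27 had windows in the table used, 38 in all, and the HNF1 letters were in 5 of these, all of them among the 18 windows of absorptive carriers (Slc3a1, Slc6a20a, Slc7a7, Slc16a10 and Slc36a1). Of all 32851 windows, 7.10% held the HNF1 letters, 0.475% the HNF4 letters and 3.97% the C/EBP-ATF letters. The C/EBP-ATF letters were also in the windows of Slc7a11 and Slc1a4, neither of which was called. A match is a string of letters and not a measured site.

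The other absorptive carriers were not called on their brightest probe sets. Slc43a2, a carrier of large neutral amino acids, measured 7.53, 7.25 and 6.95 in RFC1+/+ and 7.66, 7.76 and 8.29 in RFC1-/- embryos, without overlap. Its log2 difference of 0.66 (standard error 0.22) did not pass on this probe set (adjusted p = 0.159 from limma). On its next probe set, the values were 5.25, 4.71 and 5.13 against 5.76, 5.62 and 5.90, and that difference of 0.73 passed over all probe sets (adjusted p = 0.0244 from limma). Slc7a9, Slc7a7 and Slc43a2 thus gave the 3 probe sets called of 76, beside 2.75% of all probe sets. Slc16a10, the basolateral carrier of aromatic amino acids, differed by 0.36, -0.06 and 0.92 in litters 1, 2 and 3, and Slc36a1, the proton-coupled carrier of small amino acids, by 0.28, 0.09 and 0.44. Neither passed (adjusted p = 0.301 and 0.254 from limma).

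The remaining absorptive carriers lay below the array median in both genotypes. Slc6a19, the main apical carrier of neutral amino acids in kidney and gut, measured between 4.74 and 4.90 on all arrays, with a log2 difference of -0.04 (95% interval -0.28 to 0.20). Slc15a1, the intestinal carrier of small peptides, differed by -0.03, Slc6a14, a broad carrier of neutral and basic amino acids, by 0.09, and Slc1a1, a glutamate carrier of neurons and epithelia, by 0.19. Slc6a20a, a proline carrier of kidney and gut, had the largest negative difference among the absorptive carriers, with 3.63, 3.59 and 3.52 in RFC1+/+ and 3.29, 3.26 and 3.22 in RFC1-/- embryos. Its difference of -0.32 did not pass (adjusted p = 0.120 from limma, and 0.0460 with an intensity trend in the variance). With Slc3a1 and Slc7a8, 7 of the 12 absorptive carriers were below the array median in both genotypes, so their differences say little about transcripts at low level. For the 5 above it in either genotype, Slc7a9, Slc7a7, Slc43a2, Slc16a10 and Slc36a1, the differences ran from 0.27 to 3.63. Slc7a9 was above it only in RFC1-/- embryos, so its change itself placed it among these 5.

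**Figure D3:**
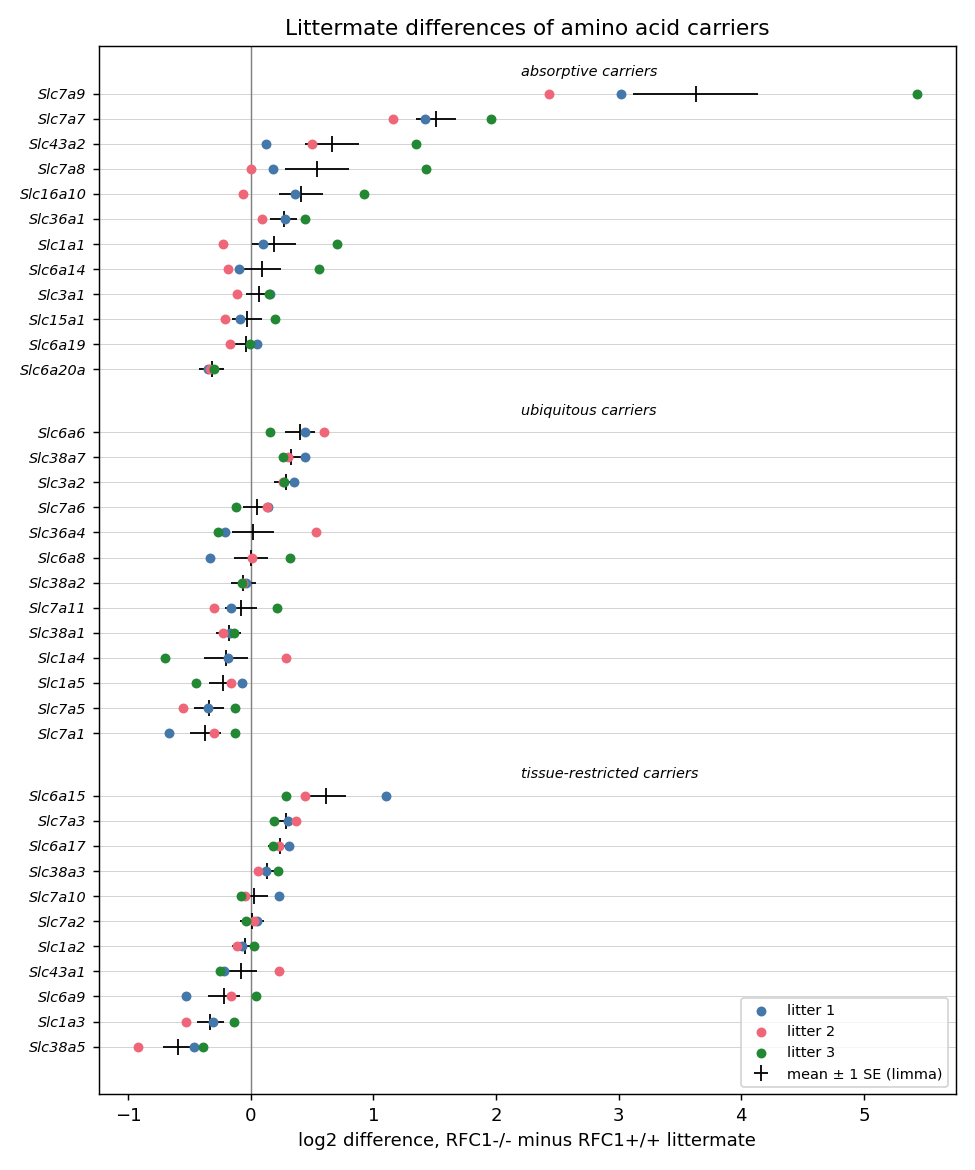
Within-litter log2 difference, null minus wild type (x axis), for the 36 carriers in 3 classes (y axis), with coloured points for the litters and black marks for the mean with 1 standard error from limma. Slc7a9 at 3.63 and Slc7a7 at 1.51 stand apart, and the ubiquitous carriers run from -0.37 to 0.40.

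Ubiquitous carriers stayed within a narrow range, and none of the 13 was called in limma. At an unadjusted p under 0.05, 3 were higher and 2 lower, beside 10.4% and 8.05% of all genes. The differences of the 13 ran from -0.37 for Slc7a1, the main arginine and lysine carrier of dividing cells, to 0.40 for Slc6a6, the taurine carrier. Slc7a1 measured 10.59, 10.46 and 10.14 in RFC1+/+ and 9.92, 10.16 and 10.01 in RFC1-/- embryos, and 1 RFC1-/- value lay above the lowest RFC1+/+ value. Slc6a6 measured 10.15, 9.95 and 10.17 against 10.58, 10.55 and 10.33 without overlap. Neither passed with all litters (adjusted p = 0.183 and 0.119 from limma), and Slc6a6 passed without litter 3 (log2 difference 0.52, adjusted p = 0.0416). Its other 3 probe sets differed by 0.17, 0.07 and -0.02.

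Slc38a2, a glutamine and alanine carrier that cells induce when amino acids are scarce, measured 12.18, 12.18 and 12.17 in RFC1+/+ and 12.14, 12.12 and 12.10 in RFC1-/- embryos. The values did not overlap, yet the difference was -0.06 (95% interval -0.29 to 0.17), since limma draws the small spread of this gene toward that of all genes. Slc38a1, the related glutamine carrier, behaved alike, with values from 11.25 to 11.31 against 11.07 to 11.12 and a difference of -0.18. The dimmer probe sets of Slc38a2 differed by 0.02 and -0.29, the latter without overlap. Neither was called over all probe sets (adjusted p = 0.979 and 0.198 from limma). Slc1a5, the glutamine carrier of dividing cells, differed by -0.23 and Slc1a4, a carrier of alanine, serine and cysteine, by -0.20, with litter differences from -0.70 to 0.29 for the latter. Slc38a7, a lysosomal glutamine carrier, differed by 0.33 and had no overlap, but did not pass (adjusted p = 0.124 from limma). Slc36a4, a carrier of proline and tryptophan, differed by 0.02, and for Slc6a8, the creatine carrier, the interval ran from -0.33 to 0.33.

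The class medians put the absorptive carriers above the ubiquitous carriers in 2 of 3 litters. The median difference of the 12 absorptive carriers was 0.14, -0.08 and 0.63 in litters 1, 2 and 3, and that of the 13 ubiquitous carriers -0.16, 0.01 and -0.12. Absorptive minus ubiquitous was thus 0.30, -0.10 and 0.75, with 0.29 for the medians of the mean differences. Litter 2 went the other way, and without litter 3 the value was 0.11. No test was made of these medians, as the members were chosen with results known.

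Among the 11 tissue-restricted carriers none was called in limma. At an unadjusted p under 0.05, 3 were higher and 2 lower, beside 10.4% and 8.05% of all genes. Slc38a5, a carrier of glutamine, histidine and glycine, came nearest. It measured 6.85, 6.75 and 6.49 in RFC1+/+ and 6.39, 5.83 and 6.10 in RFC1-/- embryos without overlap, and fell short of the threshold with a difference of -0.59 ± 0.13 (log2, standard error; adjusted p = 0.0534 from limma). It passed without litter 3 (adjusted p = 0.0309) and after a second quantile normalization (adjusted p = 0.0458). Markers of primitive red cells moved to the same side, with 8 of 9 called lower, a median difference of -3.17 and mean levels from 9.06 to 9.79 in RFC1+/+ and from 5.96 to 6.79 in RFC1-/- embryos, and their part in the Slc38a5 value was not tested. The paper reports that RFC1-/- embryos on this folic acid dose had few nucleated red cells in fetal vessels or blood islands of the yolk sac. From RNA of whole embryos alone, fewer cells of a type, less RNA per cell and a difference in stage of development cannot be told apart.

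Slc6a15, a neuronal carrier of branched-chain amino acids and proline, measured 5.41, 5.85 and 5.63 in RFC1+/+ and 6.51, 6.29 and 5.92 in RFC1-/- embryos. The difference of 0.61 did not pass (adjusted p = 0.0943 from limma), but did without litter 3 (log2 difference 0.77, adjusted p = 0.0372). Slc7a3, a basic amino acid carrier of neural tissue, and Slc6a17, a vesicular carrier of neurons, differed by 0.29 and 0.24 without overlap. Slc1a3, the glutamate carrier of radial glia and astrocytes, went the other way, from 6.65 ± 0.11 to 6.32 ± 0.10 (SD, n = 3 each), a difference of -0.33 (adjusted p = 0.177 from limma). Markers of neural progenitors were lower, with 10 of 12 called and a median of -0.87, so neural carriers lay on both sides while the neural markers fell, and their part was not tested. Slc6a9, the glycine carrier of glia and red cell precursors, differed by -0.22, Slc43a1, a carrier of large neutral amino acids, by -0.08 and Slc38a3, a glutamine carrier of liver, by 0.13. Slc1a2, the astrocyte glutamate carrier, and Slc7a2, a basic amino acid carrier of liver and macrophages, lay below the array median, with differences of -0.05 and 0.01.

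Of 26 other carriers of amino acids and peptides measured, 2 rose, none fell and 24 did not pass, with a median of 0.07. Over all genes, 3.67% were called higher and 1.65% lower. Slc66a1, which exports basic amino acids from lysosomes, measured 7.00, 7.19 and 7.32 in RFC1+/+ and 8.01, 7.62 and 8.58 in RFC1-/- embryos, a 1.87-fold rise (log2 difference 0.90, adjusted p = 0.0296 from limma). Slc38a6, a carrier of the same family as Slc38a1 whose substrates are less settled, rose 1.62-fold (adjusted p = 0.0496 from limma). Both calls ended without litter 1 (adjusted p = 0.110 and 0.108 from limma) and in the unblocked fit (adjusted p = 0.0504 and 0.0587). That of Slc38a6 was lost in 4 further settings, among them the mean of its probe sets (adjusted p = 0.229). At an unadjusted p under 0.05, 3 of the 26 were higher and 0 lower, beside 10.4% and 8.05% of all genes.

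Among proteins that stand beside amino acid carriers in the brush border, 4 of 8 measured partners and peptidases rose and none fell in limma. Over all genes, 3.67% were called higher and 1.65% lower. At an unadjusted p under 0.05, 5 of the 8 were higher and 1 lower, beside 10.4% and 8.05% of all genes. The median difference of the 8 was 0.71, and the list was chosen with earlier results of these data known. Pdzk1, a scaffold of brush border transporters, measured 5.85, 5.09 and 5.09 in RFC1+/+ and 8.75, 7.16 and 9.82 in RFC1-/- embryos (adjusted p = 0.0122 from limma). Its RFC1+/+ mean of 5.34 lay below the array median. With RFC1+/+ arrays set no lower than their medians, as for Slc7a9, the group means differed 7.96-fold. Its litters ran in the same order as those of Slc7a9, with differences of 2.90, 2.07 and 4.73. Dpp4, a membrane dipeptidyl peptidase, rose 7.40-fold, Enpep, aminopeptidase A, 2.55-fold and Mme, neprilysin, 1.57-fold (adjusted p = 0.00316, 0.0438 and 0.0184 from limma). The Enpep call ended without litter 1 or litter 3 (adjusted p = 0.137 and 0.0709), with centred arrays (adjusted p = 0.0509) and after a second quantile normalization (adjusted p = 0.0561), and that of Mme without litter 1 or litter 2 (adjusted p = 0.0790 and 0.0679). When the probe sets of each gene were averaged, both calls ended (adjusted p = 0.0527 for Enpep and 0.0516 for Mme), and the difference of Dpp4 was 1.01 in place of 2.89 but was still called (adjusted p = 0.0130). Cltrn, collectrin, which brings Slc6a19 to the membrane of kidney cells, had a difference of 0.77 but means below the array median in both genotypes (adjusted p = 0.127 from limma). Anpep, aminopeptidase N, and the peptidases Mep1a and Mep1b were also below the array median in both genotypes. They differed by -0.29, -0.11 and -0.06, and none was called.

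Genes of the amino acid response, which ATF4 drives when amino acids are scarce, were mostly not called. Of 20 measured, none rose and 1, Asns, fell in limma, beside 3.67% and 1.65% of all genes. At an unadjusted p under 0.05, 5 were higher and 2 lower, beside 10.4% and 8.05% of all genes. The median difference of the 20 was 0.06. Asns, asparagine synthetase, measured 10.68, 10.77 and 10.85 in RFC1+/+ and 10.23, 10.39 and 10.30 in RFC1-/- embryos, 1.38-fold lower (log2 difference -0.46, adjusted p = 0.0489 from limma). This call ended without any 1 of the litters (adjusted p = 0.258, 0.110 and 0.0798 without litters 1, 2 and 3) and with arrays centred on their median (adjusted p = 0.0709). The largest difference in the list was that of Ddit4, an inhibitor of mTORC1 signalling, at 1.02 with no overlap between genotypes (adjusted p = 0.0656 from limma), and it was called in 5 of 11 alternatives. Psph, which makes serine, and Eif4ebp1, a repressor of translation, differed by 0.49 and 0.41 without overlap and were each called in 2 alternatives. Mthfd2 went the other way, with a difference of -0.38 without overlap (adjusted p = 0.0879 from limma), and was also called in 2 alternatives. Atf4 itself differed by -0.15, and its targets Trib3, Chac1 and Ddit3 by -0.23, 0.14 and 0.18, with none called. Atf3 and Shmt2, also on the list, were higher in all 3 litters. They differed by 0.33 and 0.31 and were not called (adjusted p = 0.153 and 0.207 from limma). Some of the carriers that this response is known to induce, Slc7a11, Slc3a2, Slc38a2 and Slc7a5, differed by -0.08, 0.29, -0.06 and -0.34. Of these only Slc3a2 was higher, none was called, and Slc7a11 lay below the array median. They are not a full list of such carriers.

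Markers of visceral endoderm, the absorptive epithelium of the yolk sac, moved with Slc7a9 and Slc7a7. All 20 measured markers were called higher in RFC1-/- embryos, with a median difference of 3.47, and their mean level ran from 6.56 to 7.53 in RFC1+/+ and from 9.15 to 10.80 in RFC1-/- embryos. The paper had reported several of them, such as Apoa1, Cubn and Ttr, as altered on these arrays, so this count was partly known in advance. Whether the list separates yolk sac from endoderm inside the embryo was not tested. Cubn may not mark endoderm alone here. The paper's immunostaining of RFC1-/- embryos also found cubilin protein in neuroepithelium, cranial mesenchyme and heart muscle. Of the defining markers Afp, Ttr, Apoa1, Cubn and Amn, none was below the array median in RFC1-/- embryos and 1, Amn, was below it in RFC1+/+ embryos. The median over the markers was 2.84, 2.80 and 4.66 in litters 1, 2 and 3, and 16 of the 20 had their largest difference in litter 3. The others were the transcription factors Foxa1, Sox17, Gata4 and Gata6. The order of the litters was 3, 1, 2 in 9 of the markers, as in Slc7a9 and Slc7a7, and 3, 2, 1 in 7, among them Afp, Ttr, Apoa1 and Cubn. The order 3, 1, 2 was not particular to these genes. It was found in 8 of 12 absorptive carriers, among them Slc15a1 and Slc6a14 below the array median, and in 3 of 13 ubiquitous carriers. Slc38a5, which was lower, had it too. The part of these markers in the carrier values was not tested. None of 7 measured trophoblast markers was called in limma. At an unadjusted p under 0.05, 2 were higher and 0 lower, beside 10.4% and 8.05% of all genes.

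**Figure D4:**
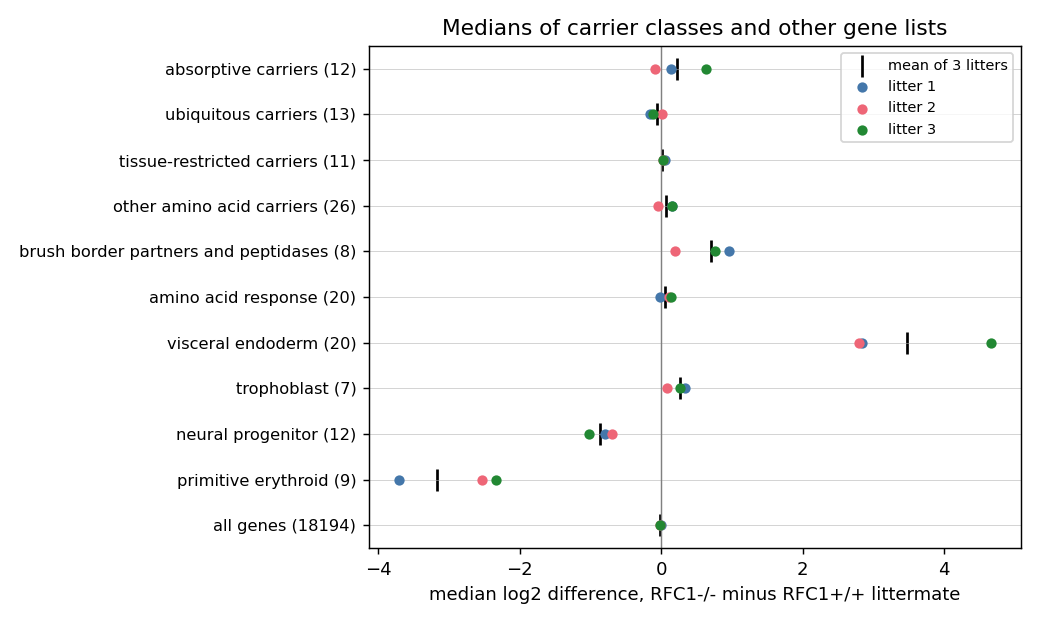
The x axis gives the median log2 difference (null minus wild type within a litter) of the 3 carrier classes and other gene lists on the y axis, where brackets hold how many genes were measured. Colours stand for litters and black marks for the median of the mean differences, which is 0.23 for absorptive carriers, -0.06 for ubiquitous carriers, 3.47 for visceral endoderm markers and -3.17 for primitive erythroid markers.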

How the data were processed

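RNA of 6 whole embryos, each hybridized to 1 Affymetrix mouse array, was measured. The authors deposited log2 expression values for 45101 probe sets, made with RMA (background correction, quantile normalization and median polish); no software version was found in the labels or methods. All 6 columns of values were used. Arrays hold no read counts, and their number limits the precision.

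GEO's annotation gave 1 symbol to 34958 probe sets, several to 932 and none to 9211; only the first were used. Each of 18194 genes was read on its brightest probe set (mean of 6 arrays). Null minus wild type was fitted with limma 3.58.1 in R 4.3.3 over all genes, with the litter as a block, empirical Bayes moderation and Benjamini-Hochberg adjustment, and called at an adjusted p under 0.05. Embryos were paired by the number and replicate that their labels share, and these pairs were read as litters. The methods state that each litter gave a wild type and a null embryo. Deviations of littermates from their genotype means correlated by 0.014, -0.029 and -0.196 in litters 1, 2 and 3. A second fit covered all probe sets. The fit was tested on simulated data. The methods' random-variance paired test was not run, since limma's moderated paired test pools variance in a like way.

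Carriers and lists were chosen with earlier results of these data known. Every carrier is given. From the other lists, up to 6 called members with the largest differences could be named. Cltrn, Anpep, Mep1a, Mep1b, Ddit4, Psph, Eif4ebp1, Mthfd2 and Atf4 were named after their values were seen. So were Trib3, Chac1, Ddit3, Atf3, Shmt2, Amn, Foxa1, Sox17, Gata4 and Gata6. On the lists, 9 genes had no probe set under their symbol alone and were not analysed here. Alternatives were no litter block, averaging the probe sets of a gene, filters on dim or unvarying genes, an intensity trend, a second quantile normalization, median centring, embryo sex as a covariate and each litter left out. Python 3.11.15 with pandas 2.3.3 and matplotlib 3.10.9 made tables and plots.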

Additional observations from a re-analysis of the deposited data

How the results depend on the processing

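Slc7a9 and Slc7a7 kept their direction and their call in all 22 results under the alternatives, with adjusted p from 7.60e-07 to 0.0188 for Slc7a9 and from 0.000459 to 0.0374 for Slc7a7 in limma, so leaving out the replicate block changed neither call. Without the replicate block 2 carriers were higher and none lower, and 1156 genes were called. Among carriers not called in the main setting, 1 fell (Slc6a20a) with the intensity trend, 1 fell (Slc38a5) after a second quantile normalization, and with embryo sex as a covariate, which leaves 1 residual degree of freedom, 4 were higher (Slc16a10 and Slc6a6 in addition) and 1, Slc38a5, lower, with 1796 genes called in all. With each litter left out in turn, between 2 and 4 carriers were called higher and between 0 and 1 lower, and between 355 genes (without litter 1) and 1199 genes (without litter 3) were called. Reading every probe set gave 3 carriers higher. The 1.5-fold variation filter left 7 carriers and 1453 genes, of which 537 were called, and no ubiquitous carrier, so the contrast of classes has no value there. The median of the absorptive carriers was 0.66 with dim genes left out, against 0.23 over 12. That left 5, of which Slc7a9 was above the array median through RFC1-/- embryos alone. The variation filter also gave 0.66, but over another 5, Slc7a9, Slc7a7, Slc43a2, Slc7a8 and Slc1a1. It keeps genes that vary across the arrays, so it favours carriers that changed. Slc7a8 and Slc1a1 lay below the array median and stood out only in the RFC1-/- embryo of litter 3. The absorptive median was 0.11 with the probe sets of a gene averaged. With a litter left out it was between 0.06 (without litter 3) and 0.38 (without litter 2). The absorptive minus ubiquitous contrast, 0.29 in the main setting, was 0.69 with dim genes left out, 0.15 with averaged probe sets and between 0.11 (without litter 3) and 0.44 (without litter 2) with a litter left out. The causes were not tested, and the filters also left fewer genes.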

Other observations

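Embryo sex, read from Xist and Y-linked genes, was not matched in every pair. Both embryos of litter 1 were male, the RFC1-/- embryo of litter 2 was male with a female littermate, and that of litter 3 was female with a male littermate. Slc38a5 and Slc6a14 lie on the X chromosome. Slc38a5 differed by -0.46 in litter 1, where sex was matched, and by -0.92 and -0.39 in litters 2 and 3. Slc6a14 differed by -0.10 in litter 1 and by -0.19 and 0.56 in litters 2 and 3, below the array median throughout. For Slc7a9 and Slc7a7 the differences in the pair of matched sex were 3.02 and 1.42.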
